A study of Homo sapiens with 35 samples.

Results

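Chromosome 17 is a gene-rich human chromosome, and its bins were taken from a map of contacts with the nuclear lamina in single cells. All 100-kb bins that the table gives as chr17 and that had a value in every cell were used, 779 of 812, out of 26584 used bins in all (2.93%). The longest of the stretches without values, 2.9 Mb at 22300001 to 25200000, was taken as the centromere and left 222 bins on the short arm and 557 on the long arm. The other 4 bins without values were at 19000001, 34500001, 34600001 and 44500001. All positions are in the build hg19, counted from 1.

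The cells were clone 5-5 of KBM7, a leukaemia line whose cells the labels give as diploid (2N), and every cell expressed lamin B1 fused to the Dam methylase. Shield1 at 0.5 nM was given for 15 h before the harvest, and single cells were sorted from the smallest 2% that carried both Fucci cell-cycle markers. There was 1 group of 32 cells, all from 1 clone, with no second condition and no cells with unfused Dam used here, so regions of the same cells are compared. The ploidy and the clone were taken from the labels, since no other readout was used here.

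The nuclear lamina is a meshwork of lamin filaments under the inner nuclear membrane. Chromatin that touches it is known to lie in large domains that hold few and mostly silent genes, while gene-rich chromatin tends to lie towards the interior of the nucleus. In DamID the fusion protein methylates adenine in GATC sites near the lamina, and methylated sites are cut, ligated, amplified and sequenced.

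The measure was the ratio of observed to expected reads in a bin (OE), and a value of at least 1 was read as a contact of that bin in that cell. Counted over bins this gives the contact share of a cell, and counted over cells the contact frequency of a bin, both in percent. With 2 copies of the chromosome and 15 h of labelling, a contact can come from either copy and from any time in that span. Depth was 40279 to 258225 reads in 29 cells, where 1 read gave a median OE of 0.094 to 0.605. It was 985, 1221 and 1755 reads in cells 13, 15 and 17, where 1 read gave a median OE of 13.7 to 24.9. Those 3 are called shallow and the 29 others deeper.

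DNA sequence enters these data through GATC, the only site at which Dam writes and DpnI cuts. The promoters shown here are those of 4 genes that are known, from general knowledge of the map and not from a file used here, to lie in the 2 long contacted regions of the long arm described below. CA10 encodes a carbonic anhydrase-related protein, KIF2B a kinesin of the spindle, and KCNJ16 and KCNJ2 inwardly rectifying potassium channels. Each line gives the 250 bases before the start of the gene, 5′ to 3′ on the strand of the gene, from RefSeq in the build GRCh38.p14, whose positions cannot be set beside the hg19 bins. GATC is in capitals.
CA10 (GRCh38.p14, chr17:52159802-52160051, minus strand): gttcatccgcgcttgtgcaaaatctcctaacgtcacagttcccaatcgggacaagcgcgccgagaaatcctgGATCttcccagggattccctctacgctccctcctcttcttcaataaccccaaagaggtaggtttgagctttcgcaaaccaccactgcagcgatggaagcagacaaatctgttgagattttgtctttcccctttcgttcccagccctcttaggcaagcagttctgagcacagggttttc
KIF2B (GRCh38.p14, chr17:53822677-53822926, plus strand): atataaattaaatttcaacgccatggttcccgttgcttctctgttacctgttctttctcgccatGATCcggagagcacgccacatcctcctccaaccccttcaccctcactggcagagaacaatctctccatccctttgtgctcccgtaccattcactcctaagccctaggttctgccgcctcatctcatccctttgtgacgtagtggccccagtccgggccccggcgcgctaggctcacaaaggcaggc
KCNJ16 (GRCh38.p14, chr17:70074975-70075224, plus strand): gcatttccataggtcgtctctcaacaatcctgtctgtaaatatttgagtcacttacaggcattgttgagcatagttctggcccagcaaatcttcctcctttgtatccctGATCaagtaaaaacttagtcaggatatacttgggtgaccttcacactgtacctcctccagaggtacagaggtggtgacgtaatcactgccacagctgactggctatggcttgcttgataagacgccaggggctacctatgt
KCNJ2 (GRCh38.p14, chr17:70169282-70169531, plus strand): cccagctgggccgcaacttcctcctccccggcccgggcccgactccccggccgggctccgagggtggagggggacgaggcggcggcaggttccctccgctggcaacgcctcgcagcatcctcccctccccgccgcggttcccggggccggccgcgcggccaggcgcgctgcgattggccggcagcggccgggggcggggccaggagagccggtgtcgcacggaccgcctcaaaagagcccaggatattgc

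The promoters of CA10, KIF2B and KCNJ16 hold 1 GATC each and that of KCNJ2 none. GATC reads the same on both strands, and 36.1% of the 1639 promoters of chromosome 17 in the table and 35.8% of all 35116 hold it in these 250 bases. Their content of G and C was 51.2% for CA10, 55.2% for KIF2B, 46.4% for KCNJ16 and 77.6% for KCNJ2, against medians of 61.6% on chromosome 17 and 58% over all promoters. No hg19 sequence was used here, so the bins themselves are described without theirs.

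Lamina contacts were sparse on chromosome 17. A cell had 0.385 to 13.5% of the chromosome's bins in contact, with a median of 6.23%, against 3.57 to 36.7% of all other bins, with a median of 27.3%. The shares averaged 6.21% ± 3.20 on chromosome 17 and 26.9% ± 8.26 in the other bins (SD, n = 32). Taken cell by cell, chromosome 17 stood -20.7 points ± 6.93 (SD) from the rest and was lower in 32 of 32 cells (two-sided sign-flip permutation test, p = 1e-05, the smallest that 100000 resamples can give). The mean OE, which uses no limit, was 0.225 on chromosome 17 and 0.957 elsewhere, and also lower in every cell (p = 1e-05). In whole reads, recovered from the values, the chromosome had a median of 733 per deeper cell. Its median share of the reads of a cell was 0.595%, for 2.93% of the bins.

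**Figure D1:**
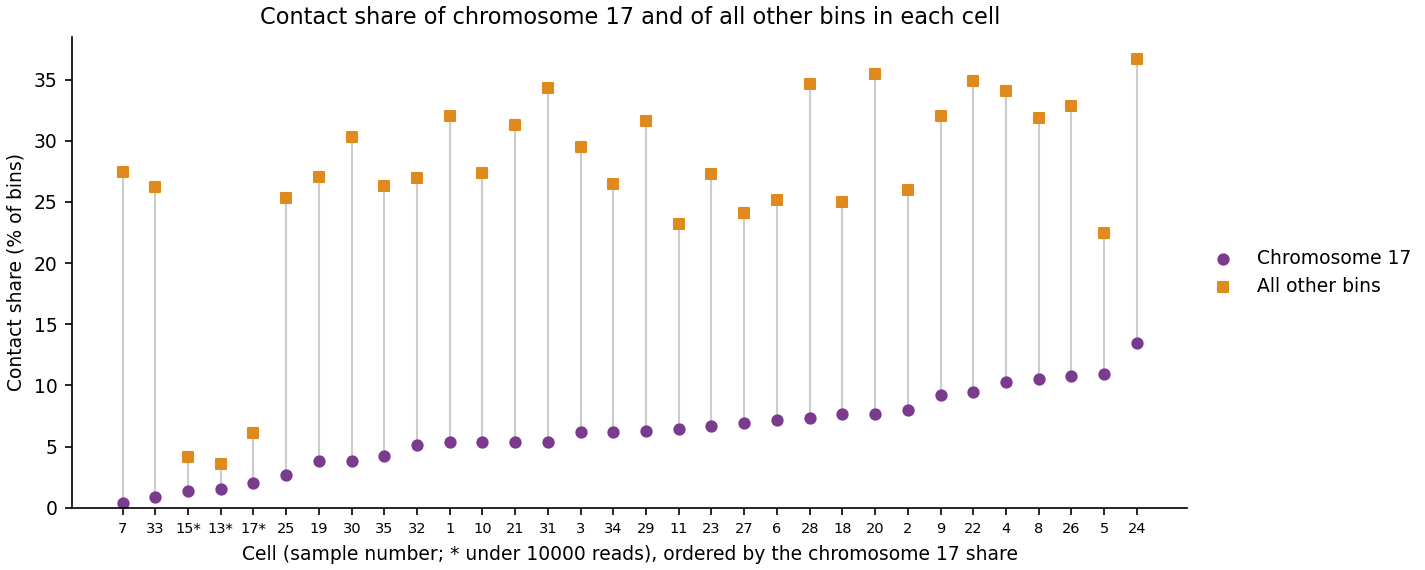
Contact share, in percent of bins, of chromosome 17 (circles) and of all other bins (squares) in each of the 32 cells, ordered by the chromosome 17 share, with cells under 10000 reads marked by an asterisk. Every circle lies below the square of the same cell, and cell 7 has the lowest circle, at 0.385%, with 27.4% of the other bins in contact.

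Chromosome 17 was set beside chromosomes near it in size or in contact share, and among these it stood above 19 and below 16 and 20. Contact share is also what is compared here, so the choice used the outcome, and the p-values do not allow for that. Chromosome 18, with 751 used bins against 779, is also near in size, but it was not among those compared. Its contact share was 32.5%. Chromosome 17 had a lower share than chromosome 16 (6.21% against 10.2% ± 5.50), with a difference of -3.99 points, in 26 of 32 cells (adjusted p = 7e-05). It was also lower than chromosome 20 (13.8% ± 6.74), by a difference of -7.58 points in 30 of 32 cells (adjusted p = 1.5e-05). Chromosome 19, which is the richest in genes, had 2.28% ± 1.97, and chromosome 17 was higher by 3.93 points, in 29 of 32 cells (adjusted p = 1.5e-05; sign-flip permutation tests, adjusted over these 3 comparisons). Over the OE limits tried, the differences ran from -7.88 to -1.98 points for chromosome 16, from 2.48 to 6.16 points for chromosome 19 and from -12.9 to -4.36 points for chromosome 20, and each passed the test. Only the chromosomes given as 19 and 22:9 had lower shares among the 22 of the table.

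Most of the chromosome was not seen at the lamina in any cell. No cell had a contact in 617 of its bins (79.2%), where 40.9% of the bins of the other chromosomes were so. For a single bin, 0 of 32 cells allows a contact frequency of up to 9.38%, taken as 3 of the 32 cells. A further 81 bins (10.4%) were in contact in under 20% of the cells, 80 (10.3%) in 20 to 80% and 1 in more than 80%, where the other chromosomes had 17.9%, 32.5% and 8.68% of their bins. Chromosomes 16, 20 and 19 had 62.5%, 57.3% and 85.9% of their bins in contact in no cell. The never-contacted bins were not empty: 517 of the 617 held a read in some cell, and 100 held none.

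**Figure D2:**
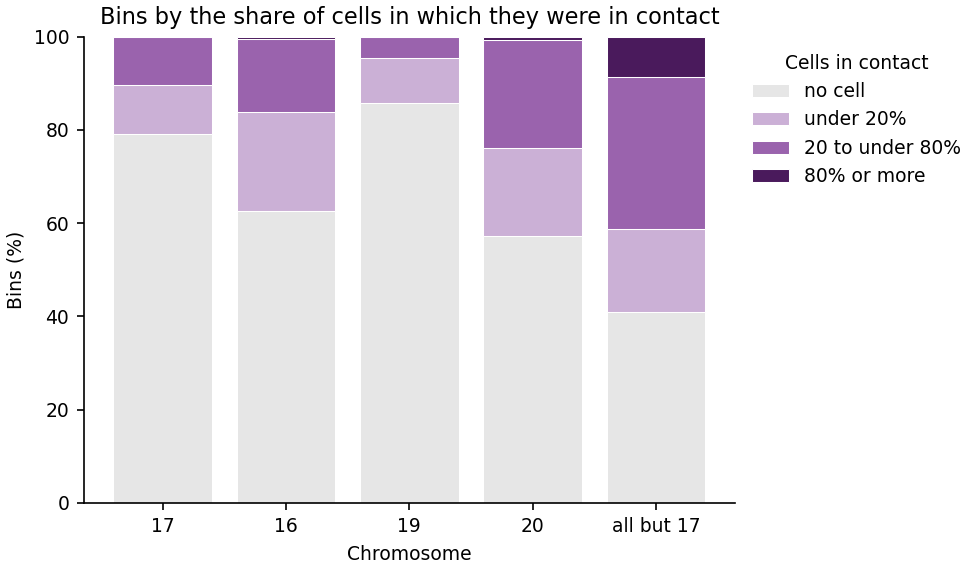
Bins, in percent, by the share of the 32 cells in which they were in contact, for chromosome 17, for chromosomes 16, 19 and 20, and for all bins outside chromosome 17. The bar of chromosome 17 has 79.2% of its bins in contact in no cell and a single bin above 80%, where all other bins together have 40.9% and 8.68%.

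Each bin was also tested against the contact shares of the cells, which predict 8.42 contacting cells for any bin. With p-values adjusted over all 26584 bins, an exact Poisson-binomial test called 55 bins of chromosome 17 (7.06%) in contact more often than that, where 30.3% of all bins were called so. All 55 lay on the long arm and none of the 222 bins of the short arm was called, and the difference between the arms in this count was not tested. It called 680 bins (87.3%) less often, against 54.5% of all bins, each in contact in at most 3 cells. When the bins were tested against the share of their own chromosome in each cell, 1.99 cells were expected on chromosome 17. Then 84 of its bins (10.8%) were called more often, in at least 6 cells each, and 30.1% of all bins were called so against their own chromosomes. Of the 84, 79 lay on the long arm and 5 on the short arm.

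The contacts of chromosome 17 lay mostly (75.7%) in 2 regions of the long arm. Neighbouring bins that reached a frequency of 20% were joined into stretches, also across 1 lower bin, and 6 were found, of which 5 were 0.5 Mb or longer and 1 was a single bin (53200001 to 53300000, 25%). These numbers depend on the limits, with 29 stretches where any read counted, 12 at a frequency of 10% and only 2 of 0.5 Mb or more at an OE limit of 2. The 5 cover 81 bins, or 10.4% of the bins of the chromosome, and held 88.2% of its 1549 contacts. Stretches found in the same way held a median of 90.8% of the contacts on the other 21 chromosomes, in a median of 35.4% of their bins, and 14 of them had a higher share of contacts than chromosome 17. They were chosen by their contact frequency, so these shares are a description and no test was made. Chromosome 17 had 6.42 stretches of 0.5 Mb or more per 100 Mb of used bins, where the median of the 22 chromosomes was 18.3 and only 19 and 22:9 had fewer. Its longest was 3.5 Mb, against a median longest stretch of 6.60 Mb over the chromosomes. Within the bins of at least 20% the mean contact frequency was 52.8%, where the median over the chromosomes was 60.4%. These ranks were not tested.

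**Figure D3:**
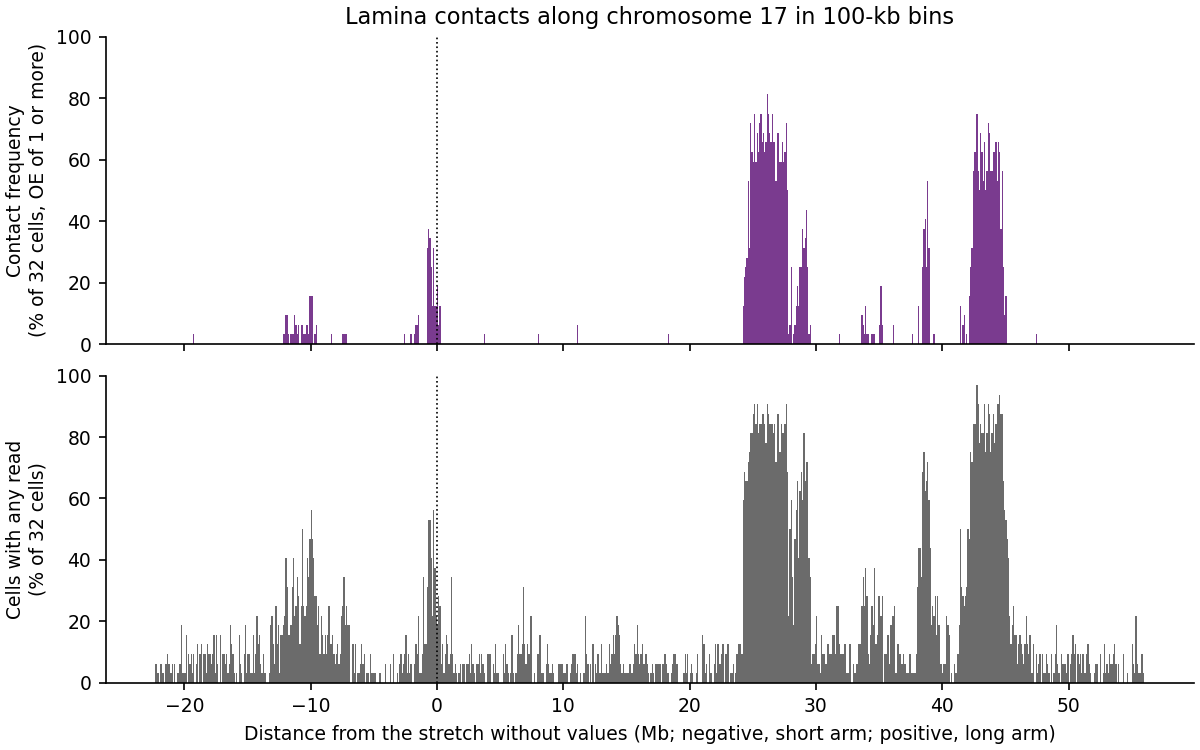
Contact frequency (top, percent of the 32 cells with an OE of 1 or more) and cells with any read (bottom, percent) in each used 100-kb bin of chromosome 17, by distance in Mb from the stretch without values, short arm to the left. In the upper panel 2 tall blocks stand on the long arm with their highest bins at 81.2% and 75%, with lower blocks beside and between them, and the short arm rises above 20% only next to the stretch without values.

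The longest stretch, 3.5 Mb at 49500001 to 53000000 on the long arm, had a mean contact frequency of 61.2% over its 35 bins and held 44.3% of the contacts of the chromosome. In the 29 deeper cells, 0 to 100% of its bins were in contact, with a median of 74.3%, and its mean OE was 0.169 at the lowest, 1.95 at the median and 4.90 at the highest. Most cells were high: 22 of the 29 had at least 50% of its bins in contact, and 3 had under 20%. The most contacted bin of the chromosome, 51300001 to 51400000, lies in it and was in contact in 26 of 32 cells (81.2%, exact 95% binomial interval 63.6 to 92.8%), with an OE of 2.42 ± 1.69 (SD, n = 29 deeper cells). The next 4 bins by contact frequency also lie in it, each in contact in 24 cells. All 35 bins were called above the share of their own chromosome, which the 20% limit of a stretch fixed in advance, since 6 cells sufficed there. Against the share of the genome 31 were called, in bins chosen by the same contacts.

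This region is known to be poor in genes. In the order of RefSeq genes in GRCh38.p14, CA10 and KIF2B are the only 2 protein-coding genes between UTP18 and TOM1L1, of which UTP18 takes part in making ribosomes and TOM1L1 in sorting proteins within the cell. Which bin a gene lies in was not determined, because no hg19 annotation was used here.

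The second stretch, 2.7 Mb at 67400001 to 70100000, had a mean contact frequency of 56.2% over 27 bins and held 31.4% of the contacts. In the deeper cells 0 to 100% of its bins were in contact, with a median of 70.4%, and its mean OE was 0.130 at the lowest, 1.57 at the median and 4.60 at the highest. Of the 29 cells, 17 had at least 50% of the bins in contact, 11 had over 80% and 3 had under 20%. Its highest bin, 67900001 to 68000000, was in contact in 24 of 32 cells (75%), with an OE of 2.29 ± 1.70 (SD, n = 29). All 27 bins were called above the share of their own chromosome, again fixed in advance by the 20% limit, and 23 above that of the genome.

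The second stretch lies, by general knowledge, in the region of the potassium channel genes KCNJ16 and KCNJ2 and of the wide gene desert between them and SOX9, the transcription factor of cartilage and of sex determination, whose distant enhancers lie in that desert. In the RefSeq order of GRCh38.p14 no protein-coding gene stands between KCNJ2 and SOX9, and MAP2K6, KCNJ16, KCNJ2 and SOX9 are the 4 between ABCA5 and SLC39A11. The same limit on placing genes holds here.

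The borders of both long stretches were steep in places and stepped in others. On the left of the 3.5-Mb stretch the 5 bins from 48900001 to 49400000 were in contact in no cell and the bin at 49400001 in 4 cells. From there the bins at 49500001, 49600001 and 49700001 were in contact in 7, 8 and 9 cells, that at 49800001 in 17, that at 49900001 in 10 and that at 50000001 in 23. The right border was a single step, with 16 cells in contact in the last bin, at 52900001, and 1 in the next, though the bin at 53200001 had 8 again. Across that step the mean OE was 1.35 ± 1.75 and 0.0868 ± 0.244 (SD, n = 29). The left border of the 2.7-Mb stretch rose over 4 bins, with 5, 8, 10 and 18 cells in contact at 67300001, 67400001, 67500001 and 67600001. Its right border fell over 3, with 18 cells at 69900001, 8 at 70000001 and 3 at 70100001, the bin at 70200001 had 5, and from 70300001 to 70600000 no cell was in contact. The 0.5 Mb on either side had mean contact frequencies of 2.5% and 7.5% beside the first and 5.62% and 5% beside the second. In single cells the longest run was 3.1 Mb or more only in cells 1, 4, 8 and 26, each time over the 3.5-Mb stretch. It began at 49400001 in cell 26, at 49500001 in cell 4 and at 49800001 in cells 1 and 8. It ended at 52900000 in cell 1 and at 53000000 in the other 3. Longest runs over this stretch in other cells were shorter and had other limits, such as 50000001 to 51800000 in cell 9 and 50500001 to 53000000 in cell 29. Which of the 2 copies of the chromosome gave a run was not resolved.

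**Figure D4:**
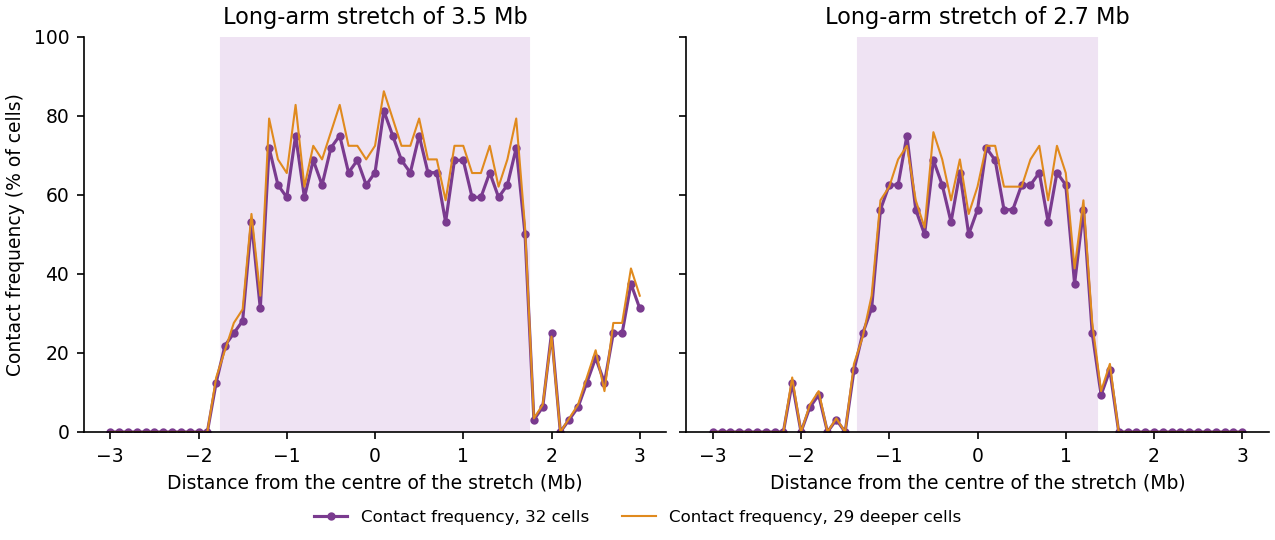
Contact frequency, in percent of all 32 cells (points) and of the 29 deeper cells (thin line), around the 3.5-Mb stretch (left) and the 2.7-Mb stretch (right) of the long arm, by distance in Mb from the centre of the stretch, with the stretch shaded. Both stand mostly between 50 and 80% inside the shading, and the 3.5-Mb stretch has 50% in its last bin on the right and 3.12% in the next.

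The other 3 stretches were shorter and less often in contact. The first, 0.7 Mb at 53900001 to 54600000, lies 0.9 Mb beyond the 3.5-Mb stretch, and its bins were in contact in 31.7% of the cells on average, with an OE of 0.861 ± 0.881 (SD, n = 29). Another of 0.6 Mb at 63600001 to 64200000 had 35.4% and an OE of 0.936 ± 0.724. The only stretch of the short arm, 0.6 Mb at 21500001 to 22100000, ends 0.2 Mb before the centromere and had 28.6% and an OE of 0.814 ± 0.705. It rests on few reads, with a median of 5 per deeper cell, against 22 in the stretch at 53900001 and 26 in that at 63600001. In its first bin, at 21500001, every cell with any read was in contact (31.2% for both). In each of these 3, 9 to 11 of the 29 deeper cells had no bin in contact, where 1 and 2 cells had none in the long stretches. Of their 19 bins, 18 were called above the share of their own chromosome, which the frequency limit of a stretch again fixed in advance. The bin not called, at 21900001, was in contact in 4 cells and had been joined as a lower bin. Against the share of the genome 1 bin was called, where 30.3% of all bins were, and these bins were chosen by the same contacts.

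Never-contacted stretches made up most of the rest, where a bin without values was taken to end a stretch. The 5 longest together span 31.6 Mb, from 3100001 to 10100000 (7 Mb), from 29000001 to 33200000 (4.2 Mb), from 36400001 to 43500000 (7.1 Mb), from 44600001 to 49400000 (4.8 Mb) and from 72700001 to the end at 81195210 (8.5 Mb). Their mean OE in the deeper cells was 0.0139 to 0.0232, with SDs of 0.0131 to 0.0187 (n = 29), and in their bins 5.55 to 8.48% of the cells had any read. Over all 32 cells they gave 119 to 308 reads each. By general knowledge the stretch at 36400001 holds the type I keratin genes, of epithelia, that at 44600001 the HOXB genes, which pattern the body axis, and the last one ACTG1, the gene of a cytoplasmic actin. Were bins without values passed over, 44 bins from 15200001 to 19700000 (4.5 Mb) would come before the 4.2-Mb stretch, and the 4.8-Mb stretch would begin at 43600001 and span 5.8 Mb. In all there were 35 never-contacted stretches, with a median of 0.8 Mb, and 16 of them reached 1 Mb.

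The short arm was in contact less than the long arm. Its share ranged from 0 to 9.91% over the cells, with a median of 1.35%, and that of the long arm from 0 to 14.9%, with a median of 7.99%. The means were 1.80% ± 2.25 and 7.97% ± 4.13 (SD, n = 32), the difference was -6.17 points ± 4.09, and the short arm was lower in 29 of 32 cells (by the same permutation test, adjusted p = 1e-05 over 3 regional comparisons). The 2 long stretches are 62 of the 557 bins of the long arm. In its other 495 bins the mean contact frequency was 1.57%, close to the 1.80% of the short arm, and this was not tested because the stretches were chosen by their contacts.

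The ends of the chromosome were almost free of contacts, as were long parts of its interior. Within 5 Mb of an end the cells had 0 to 0.990% of 101 bins in contact, and 0.442 to 15.5% of the other 678. The means were 0.0309% ± 0.175 at the ends and 7.14% ± 3.67 elsewhere, a difference of -7.10 points, and the ends were lower in 32 of 32 cells (adjusted p = 1e-05). The single contact at the ends was that of 1 bin in 1 cell. Among 5-Mb windows of the interior, that from 5000001 had a mean contact frequency of 0% and that from 40000001 one of 0.0638%. The window from 50000001 had 46.1%. Within 5 Mb of the centromere the share was 2.72% ± 2.61 of 99 bins, against 6.72% ± 3.49 of the other 680, a difference of -4.01 points in 28 of 32 cells (adjusted p = 1e-05). Within 2 Mb this turned to 6.48% against 6.20%, a difference of 0.285 points that did not pass (adjusted p = 0.777). That window holds the short-arm stretch at 21500001, which had a median of only 5 reads per deeper cell. For the ends and for the 5-Mb flanks alike, the rest of the chromosome held the 2 long stretches, 62 bins with 75.7% of the contacts. The other 495 bins of the long arm, some of them in these flanks, had a mean contact frequency of 1.57%, below the 2.72% of the flanks. This was not tested, because the stretches were chosen by their contacts.

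Contacted bins of chromosome 17 had lower values than contacted bins elsewhere when all contacted bins were taken. The median OE of the contacted bins of a cell was 2.21 ± 0.733 on chromosome 17 and 2.61 ± 0.284 in the other bins (SD, n = 29 deeper cells), a difference of -0.403, lower in 23 of 29 cells (p = 0.00481 by a sign-flip permutation test). Over bins of 20 to 80% contact frequency alone, the values were 2.35 on chromosome 17 and 2.47 in the other bins. The difference there was -0.121, with chromosome 17 higher in 9 of 28 cells, and did not pass the test (p = 0.37). The 5 alternatives tried for this difference gave p between 5e-05 and 0.37.

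Relative to the mean, cells differed more in their contacts of chromosome 17 than in those of the genome. Over the 29 deeper cells the SD of the contact share was 0.446 times its mean for chromosome 17 and 0.140 times for all other bins. In points the order was the reverse, with an SD of 2.98 for chromosome 17, whose mean was low, and 4.08 for the other bins. The other bins are many more and average over chromosomes, and single chromosomes had a median of 0.269, with 2 of the 22 above chromosome 17. Chromosomes 21 (0.446) and 16 (0.444) stood beside it and chromosome 19 (0.787) above it, and this order was not tested. The share of chromosome 17 went only loosely with that of the other bins, with Pearson's r of 0.397 and Spearman's rho of 0.278 over the deeper cells. Leaving out the 2 cells farthest from the median gave an r of 0.275. With log10 reads, r was 0.303 for chromosome 17 and 0.856 for the other bins. These points share their libraries and depths, and the relations are given as descriptions.

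Cell 7 stood at the low end. It had 122629 reads, near the median, and 27.4% of the other bins in contact, but only 3 of the 779 bins of chromosome 17 (0.385%) and no bin of either long stretch. The 3 bins formed a single run on the short arm, at 14800001 to 15100000. Its 143 reads on the chromosome included 52 in never-contacted bins, whose mean OE of 0.0166 lay within the 0.00302 to 0.0554 of the deeper cells, near their median of 0.0209. Its share was 0.0576 times the mean of the deeper cells on chromosome 17, and from 0.0718 times (chromosome 19) to 1.31 times (chromosome 21) on the 20 others compared, which leave out 22:9. Cell 33, with 105667 reads, had 8.57% of the bins of the 3.5-Mb stretch and none of the 2.7-Mb stretch in contact. At the other end, cell 4 had every bin of both in contact, with 207575 reads, and cell 26 had 100% and 96.3%, with 174194 reads.

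The 2 long stretches were often, but not always, in contact in the same cells. Both had at least 50% of their bins in contact in 15 of the 29 deeper cells, only the 3.5-Mb stretch in 7, only the 2.7-Mb stretch in 2 and neither in 5. Each was high in most cells, the 3.5-Mb stretch in 22 and the 2.7-Mb stretch in 17, so many shared cells would arise without a relation. The clearest split was in cell 21, with 85.7% of the first and 18.5% of the second, and cell 31 had 31.4% and 96.3%. Pearson's r between the 2 shares was 0.522 and Spearman's rho 0.499, and r fell to 0.315 without the 2 cells farthest from the median. For the 0.7-Mb stretch at 53900001, r was 0.559 with the nearby 3.5-Mb stretch and 0.641 with the 2.7-Mb stretch, which lies more than 10 Mb away. The short-arm stretch had r of 0.102 with the 3.5-Mb and -0.0307 with the 2.7-Mb stretch. With the share of the other bins in the same cells, r was 0.302 for the 3.5-Mb and 0.338 for the 2.7-Mb stretch. All these points share their libraries and depths, and no test was made.

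**Figure D5:**
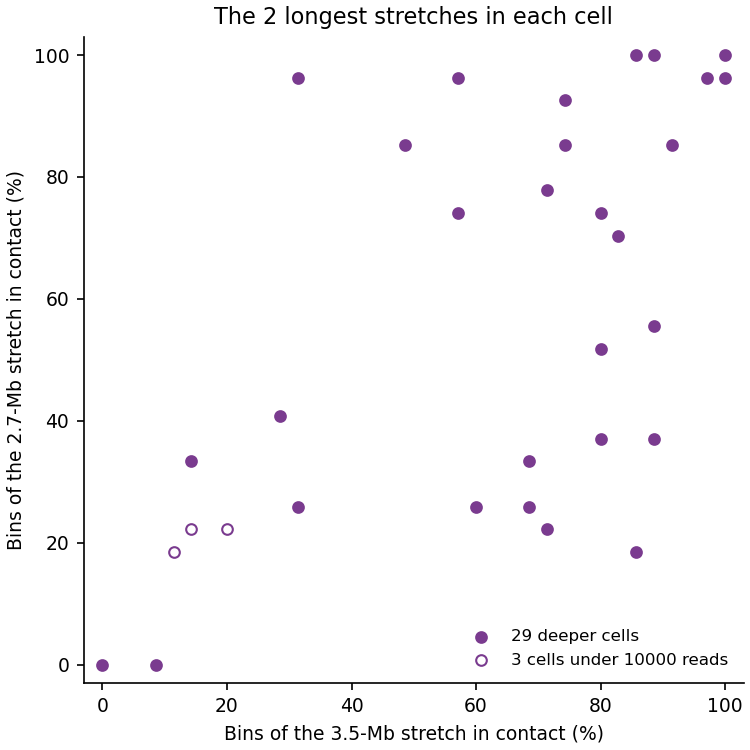
Bins in contact, in percent, of the 3.5-Mb stretch (horizontal) and the 2.7-Mb stretch (vertical) in each cell, with the 29 deeper cells filled and the 3 cells under 10000 reads open. Points fill the upper right, where 15 cells have at least 50% on both axes, and cell 7 lies at 0 on both.

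In single cells the contacts of the chromosome were counted in runs of adjacent bins, where a lone bin also makes a run. A deeper cell had 1 to 29 runs, with a median of 14. The mean length of its runs was 0.117 to 0.8 Mb, with a median of 0.323 Mb, and its longest run was 0.2 to 3.6 Mb, with a median of 1.8 Mb. That longest run touched a long stretch in 26 of the 29 cells. The long stretches were chosen by the contacts of the same cells, so this count is a description. Between 0 and 3 runs per cell reached 1 Mb.

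Outside the 5 stretches contacts were rare and unevenly spread over cells. The 698 bins there had a mean contact frequency of 0.819%, and 81 of them were in contact in some cell. A cell had 0 to 38 of these 183 contacts, with a median of 3.5, and cell 24, the deepest, had the 38 (20.8%). Without cell 24, 66 of the bins were in contact in some cell. The widest field of such contacts was on the short arm, from 10000001 to 15000000, where 27 of 50 bins were in contact in some cell and no bin in more than 15.6% of the cells. It held 52 contacts of 12 cells, 18 of them from cell 24, whose longest run there spanned 0.7 Mb (10700001 to 11400000, mean OE of 1.65). Without cell 24, 18 of the 50 bins were in contact. Its highest bins, from 12200001 to 12500000, were in contact in 5 cells each, and in cells 9 and 27 these 3 formed a run of their own.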

How the data were processed

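The deposited values are ratios of observed to expected reads per 100-kb bin and cell (OE), as the authors' table names them. Cutadapt, Bowtie2 2.1.0 and the build hg19 are listed in the submitters' processing notes. The sources used here do not give the basis of the expected reads, the read filters or the handling of duplicates. Of 35 labelled samples, 32 matched a column by sample number, and 3 (12, 14 and 16) were not analysed here. Arms were split at the longest stretch without values. Whole reads were recovered per bin as multiples of the largest common step (100% of nonzero values whole within 0.01 reads, since the step was sought so). PCR reads are not independent molecules, so intervals and limits cover counting error only, and p-values measure the spread between cells of 1 clone.

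Bins were called with a two-sided Poisson-binomial test (smaller tail doubled, Benjamini-Hochberg over all bins, threshold 0.05). Regions were compared within cells by sign-flip permutation (100000 resamples). Both were run on simulated data in which bins and cells were independent of each other. Neighbouring bins go together in the real data, so those runs check the code and not the error rates here. Regions were named by rule: contacted stretches of 0.5 Mb or more, the 5 longest never-contacted stretches and the 5 highest bins. The single cells and the short-arm field named were picked with their values in view. The members and lists were chosen with earlier results of these data known. Planned gene lists and base composition of bins were not run, since no hg19 annotation or genome was used here. Python 3.11.15, numpy 2.4.6, scipy 1.17.1 and pandas 2.3.3 were used.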

Additional observations from a re-analysis of the deposited data

How the results depend on the processing

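Alternatives were OE limits of any read, 0.5 and 2, leaving out the 3 shallow cells or the bins at 0 in every cell, thinning the 29 deeper cells to 40279 reads, other widths and other definitions of a stretch. The mean OE and the recounts of stretches of 0.5 Mb or more were chosen after seeing the data. Of 76 values, 71 did not change sign or test outcome or, as counts, stayed within 1.5 times. Among them, chromosome 17 against the other bins ranged from -28.1 to -14.1 points, the arms from -7.59 to -3.96 points, the ends from -13.4 to -4.01 points, bins called more often from 47 to 72 and bins called less often from 580 to 690. The centromere flanks turned to 0.285 points within 2 Mb (adjusted p = 0.777), and the OE difference of contacted bins no longer passed in bins of 20 to 80% frequency (-0.121, p = 0.37). The number of stretches was 29 with any read counted and 12 at a frequency of at least 10%, where 6 were found. Stretches of 0.5 Mb or more numbered 2 with an OE limit of 2, where 5 were found. Thinned to equal depth, the 29 deeper cells gave 51 bins called more often and 667 called less often, where the 32 cells as deposited gave 55 and 680.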
